A study of Mus musculus with 2 samples.

Results

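The genes examined here encode the secreted and membrane-bound metalloproteinases and their inhibitors: the matrix metalloproteinases (MMPs), the ADAMs, the ADAMTS and ADAMTS-like proteins, and the tissue inhibitors of metalloproteinases (TIMPs). They were chosen by symbol. Every array probe other than a control whose gene name begins with Mmp, Adam, Adamts, Adamtsl or Timp followed by a digit was taken, except those of *Mmp9* and *Mmp20*, and each gene was represented by its brightest probe. The rule used no measured difference between the genotypes, and it gave 81 genes, covered by 114 probes, out of 21244 genes that the array covers under a reference symbol. They were 21 MMP, 4 TIMP, 32 ADAM, 19 ADAMTS and 5 ADAMTS-like genes.

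RNA came from the incisor of wild-type mice (C57BL/6J by the study's methods) and of *Sox21* knockout (*Sox21* KO) mice, a line received as a gift that lacks the transcription factor Sox21, which marks ameloblasts, the epithelial cells that secrete enamel. The labels give the age as postnatal day 0 for both genotypes, whereas the methods give a day later, and the series text speaks both of ameloblasts and of whole tooth germs. Each genotype was measured on 1 Agilent one-colour array with the same dye, the number of animals behind each RNA is not given in the sources used here, and the 2 arrays in all allow no test and no p-value. A difference between the arrays therefore cannot be told apart from a difference between litters, dissections or animals.

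MMPs degrade collagens and other extracellular matrix, and most are made as inactive precursors that need a cleavage to become active. ADAMs sit in the cell membrane, where the catalytic ones cut the outer parts off growth factors, receptors and adhesion molecules, while the secreted ADAMTS enzymes process procollagens and cleave proteoglycans. TIMPs bind the active site of these enzymes and block it. In developing teeth, enzymes of these families remodel the matrix between epithelium and mesenchyme, the enamel matrix itself and the bone of the socket.

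Part of the MMP family lies side by side on mouse chromosome 9. *Mmp13*, a member that stands out in the measurements, can be seen against that run of genes, a view chosen after the values were known. In the RefSeq order of assembly GRCm38.p6, 10 consecutive protein-coding genes there are all MMPs, in the order *Mmp13*, *Mmp12*, *Mmp1b*, *Mmp3*, *Mmp1a*, *Mmp10*, *Mmp8*, *Mmp27*, *Mmp20* and *Mmp7*. MMP promoters are known for binding sites of AP-1, the dimer of Fos and Jun proteins, whose consensus is TGAGTCA. Read on the opposite strand the same site is TGACTCA. Both strands were searched in the 250 bases before each gene's start. They were present before 7 of these 10 genes (70%), all but *Mmp8*, *Mmp27* and *Mmp20*, against 1466 of 32851 RefSeq promoters (4.46%) and 1395 of 27025 genes (5.16%). Among the members with a promoter sequence, 9 of 51 (17.6%) held the letters, and outside the chromosome 9 run it was 2 of 42 (4.76%), *Adam19* and *Adam29*. A match is a description of the sequence and not evidence of binding. The stretches around the match are shown, on the strand of the gene, for *Mmp13*, the one member of the run with a signal over background, for its unmeasured neighbours *Mmp3*, *Mmp1a* and *Mmp10*, and for *Adam19*, the measured member with the lowest ratio. Capitals mark the motif. The windows are chr9:7272459-7272505 (plus strand) for *Mmp13*, chr9:7445756-7445802 (plus) for *Mmp3*, chr9:7464048-7464094 (plus) for *Mmp1a*, chr9:7502259-7502305 (plus) for *Mmp10* and chr11:46055833-46055879 (plus) for *Adam19*, all in GRCm38.p6.
Mmp13: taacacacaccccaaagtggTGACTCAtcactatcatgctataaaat
Mmp3: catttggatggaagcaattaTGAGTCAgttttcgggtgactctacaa
Mmp1a: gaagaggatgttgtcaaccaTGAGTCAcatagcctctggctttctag
Mmp10: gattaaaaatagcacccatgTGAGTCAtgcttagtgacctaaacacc
Adam19: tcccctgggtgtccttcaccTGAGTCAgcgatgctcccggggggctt
In the *Mmp13* window the motif ran from 35 to 29 bases before the start of the gene.

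The signal of a gene on this platform is that of 1 probe of 60 bases, so the probes matter for how a value is read. The first 30 bases of each are shown for *Mmp13*, the brightest member past 1.5-fold, for *Adam23*, the member with the highest ratio, whose 3 probes were not all above background, and for *Adam12*, whose measured probes lay furthest apart. Positions are those of the whole probe as the files give them in mm9. The *Mmp13* probe lies at chr9:7282762-7282821 on the plus strand. The 3 *Adam23* probes lie on the plus strand, the brightest at chr1:63639339-63639398, the second at chr1:63642791-63642850 and the dimmest at chr1:63619723-63619782. The *Adam12* probes lie on the minus strand, the brightest across chr7:141079625-141081861, a span of 2237 bases for its 60 bases, which places it across at least 1 splice junction, and the second at chr7:141075827-141075886.
Mmp13: tcattactcaaggctatgcacactggtaga
Adam23, brightest: taatgactacagagcctcagatctgagaat
Adam23, second: tcaaaggttcactacaaattgaagcagcca
Adam23, dimmest: cagaagcatattaaaatgacctcctagctt
Adam12, brightest: atcagacctgcccctaagcatcaagtaccc
Adam12, second: gaaaatcaagttagcactaattacaaaatg
No letters are capitalised in the probes, since no position within them was singled out.

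Values below are processed signals, an intensity that the scanner software has corrected for background, in many cases with the software's own error for that spot after ±, which describes the spot and not the spread between animals. The log2 ratio is the *Sox21* KO value minus the wild-type value after each signal was divided by the 75th percentile of its array, 267.7 for wild-type and 275.6 for *Sox21* KO. Its error combines both spot errors and was 0.20 to 0.35 over the members measured, with a median of 0.21. A gene counts as measured when the software marks its probe as well above background on both arrays, and 1.5-fold and 2-fold are used as limits of size. The median SD of the log2 ratio between repeat spots of a probe was 0.09 over 268 probes.

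The targeted gene and the tissue were checked first. On its brighter probe *Sox21* had 1362 ± 136 in wild-type and 659 ± 66.1 in *Sox21* KO, a log2 ratio of -1.09, and its other probe gave -1.51, so the signal was lower on the array labelled KO but not at background there. Whether these probes lie in the deleted part was not tested. All 6 ameloblast markers passed the background limit on both arrays, and 4 of them were lower on the KO array, with a summed normalised signal of 3138 against 2851. That sum is mostly *Amelx* (log2 ratio 0.08) and *Ambn* (-0.23), while *Amtn* (-1.89), *Klk4* (-1.05) and *Enam* (-0.65) were past 1.5-fold lower and *Odam* (0.63) past 1.5-fold higher. A normalised signal is a signal after that division. In a bulk sample, fewer cells of a type and less RNA per cell cannot be told apart. Over all measured genes the median log2 ratio was 0.01.

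Of the 81 members, 39 were measured on both arrays (48.1%, against 65% of all genes), 3 in wild-type alone, 5 in *Sox21* KO alone and 34 in neither. Of all 21244 genes, 273 were marked in wild-type alone, 451 in *Sox21* KO alone and 6721 in neither. The 39 measured members leaned towards higher signals in the knockout: 27 were higher and 12 lower, or 69.2% higher, where 52.5% of all measured genes were higher. Their median log2 ratio was 0.19 and their range -0.55 to 1.22. Of these, 5 members, *Adam23*, *Adamts15*, *Mmp13*, *Adam8* and *Adamtsl4*, were at least 1.5-fold higher, against 3.2% of all measured genes, and 0 were at least 1.5-fold lower, against 2.98%. At 2-fold, 1 member was higher (*Adam23*) and 0 were lower, against 0.739% and 0.667% of all measured genes. With normexp background correction, 2 members, *Mmp13* and *Adam23*, were at least 1.5-fold higher and 0 at least 2-fold, and 172 of 13799 genes were at least 1.5-fold higher. For 21 members the log2 ratio exceeded its scanner error, 17 of them higher, against 17.9% of all measured genes, and 4 lower, against 16%. The share of higher genes depends on the scaling: with the arrays scaled to their medians instead, 65.6% of all measured genes and 29 of 39 members were higher, and with normexp background correction 49.9% and 25 of 39.

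**Figure D1:**
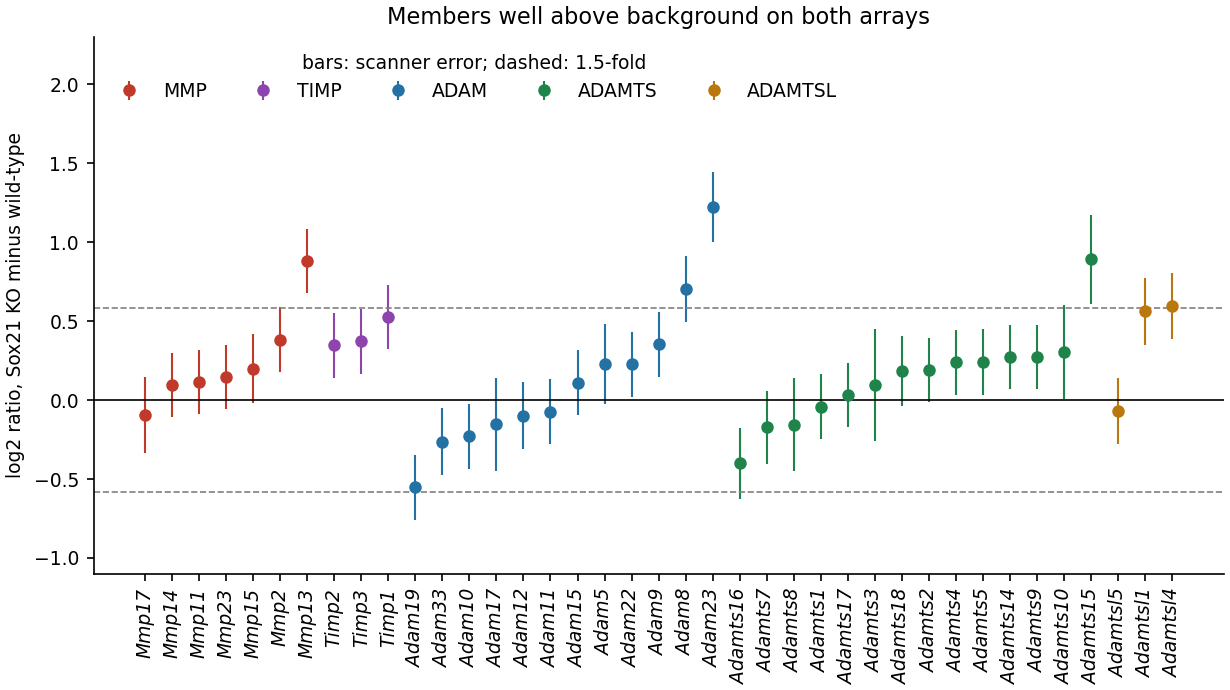
Log2 ratio (*Sox21* KO minus wild-type) of the 39 members well above background on both arrays, ordered within each family; bars are the scanner error of the ratio, with 1 array per genotype, and dashed lines mark 1.5-fold. Above the upper line lie 5 points and below the lower one 0, and the 3 TIMP points all lie above 0.

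The plot of members among all genes sets these ratios against the brightness of the probe. The members past 1.5-fold included 1 bright gene, *Mmp13*, and 4 of middling or low signal, where the ratios of all genes spread more widely.

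**Figure D2:**
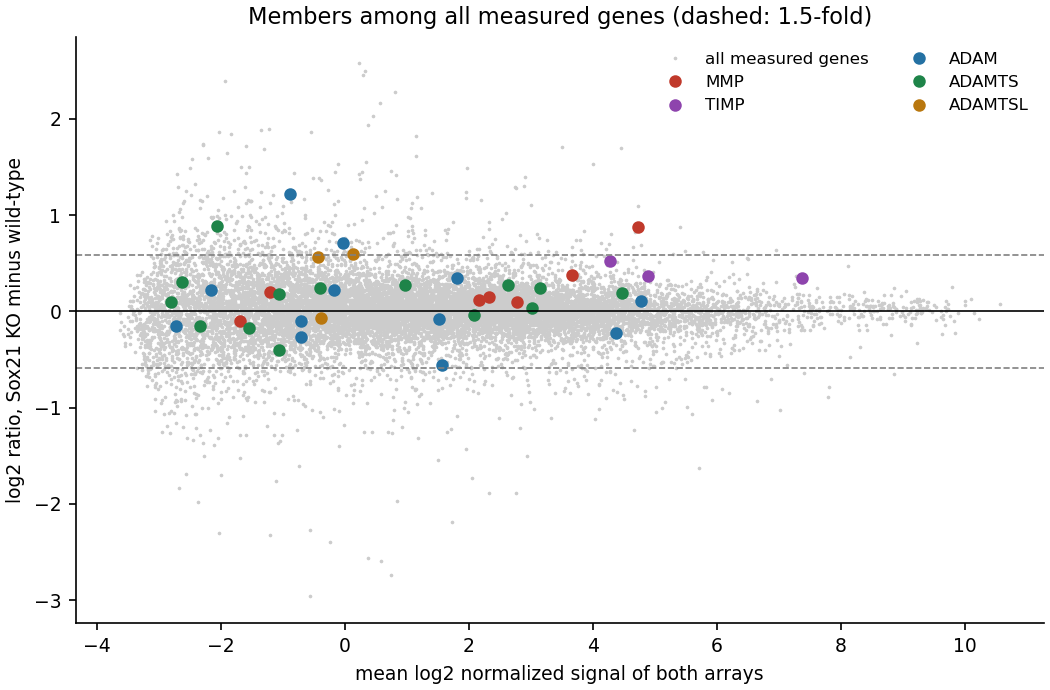
Log2 ratio (*Sox21* KO minus wild-type) against the mean log2 normalised signal of both arrays for all measured genes (grey) and the 39 measured members (coloured by family); dashed lines mark 1.5-fold. The grey cloud widens towards low signal, and *Mmp13* (log2 ratio 0.88) and the 3 TIMPs lie among the brighter genes.

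Among the collagenases, which cut the triple helix of fibrillar collagen, *Mmp13* was bright and the others were at background. *Mmp13*, collagenase-3, an enzyme of bone and of cartilage that is being replaced by bone, had 5226 ± 523 in wild-type and 9898.5 ± 990 in *Sox21* KO. The KO signal was the higher, 1.84-fold, with a log2 ratio of 0.88 (scanner error 0.20). *Mmp1a*, *Mmp1b* and *Mmp8*, the neutrophil collagenase, stayed at background on both, with signals of 5.43 to 11.3 in wild-type.

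*Mmp2* encodes gelatinase A, which digests denatured collagen and basement membrane collagen. It had 2963 ± 296 in wild-type and 3976 ± 398 in *Sox21* KO, higher in the knockout with a log2 ratio of 0.38. The related *Mmp9*, gelatinase B, known from osteoclasts, and *Mmp20*, enamelysin, which cleaves the enamel proteins, stand outside the rule. *Mmp9* had 2892 and 5304 (log2 ratio 0.83) and *Mmp20* 6436 and 4304 (-0.62), so these 2 differed in opposite directions.

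Of the 3 stromelysins only *Mmp11* was measured, at 1147 and 1278 (log2 ratio 0.11), and its second probe gave the same log2 ratio of 0.11. *Mmp3* had 5.97 in wild-type and 5.48 in *Sox21* KO and *Mmp10* was as dim, so both were at background. Matrilysin, *Mmp7*, and the macrophage metalloelastase, *Mmp12*, were likewise on neither array.

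Membrane-type MMPs are anchored at the cell surface, and *Mmp14*, the best known of them, activates the precursor of gelatinase A together with TIMP2. *Mmp14* had 1780 ± 178 and 1956 ± 196, a log2 ratio of 0.09 that lies within its scanner error. *Mmp15* had 108 and 128 (0.20) and *Mmp17* 85.8 and 82.6 (-0.10), also within the error. *Mmp16*, at 17.3 and 5.75, was at background on both arrays, as were *Mmp24* and *Mmp25*. Of the 5 remaining MMPs, *Mmp23* had 1269 and 1444 (0.15), and *Mmp19*, *Mmp21*, *Mmp27* and *Mmp28* were on neither array. In all, 7 of 21 MMP members were measured, 6 higher and 1 lower, with a median log2 ratio of 0.15 beside 0.01 for all genes.

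Along the chromosome 9 run, the measured genes stood far apart. Over about 415 kb, from the *Mmp13* probe to the *Mmp7* probe 414.9 kb away in mm9, 2 of the 10 genes were measured and 8 were not. *Mmp13*, at 1 end, was at 245 times the lowest signal that passed the limit in wild-type and 508 times in *Sox21* KO. *Mmp20*, at position 9 and 391.5 kb away, was at 302 and 221 times, lower where *Mmp13* was higher. The 6 further genes with the AP-1 letters before their start were at background on both arrays, so the letters were found both before *Mmp13* and before neighbours at background. *Adam19*, which has them too, had a log2 ratio of -0.55.

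**Figure D3:**
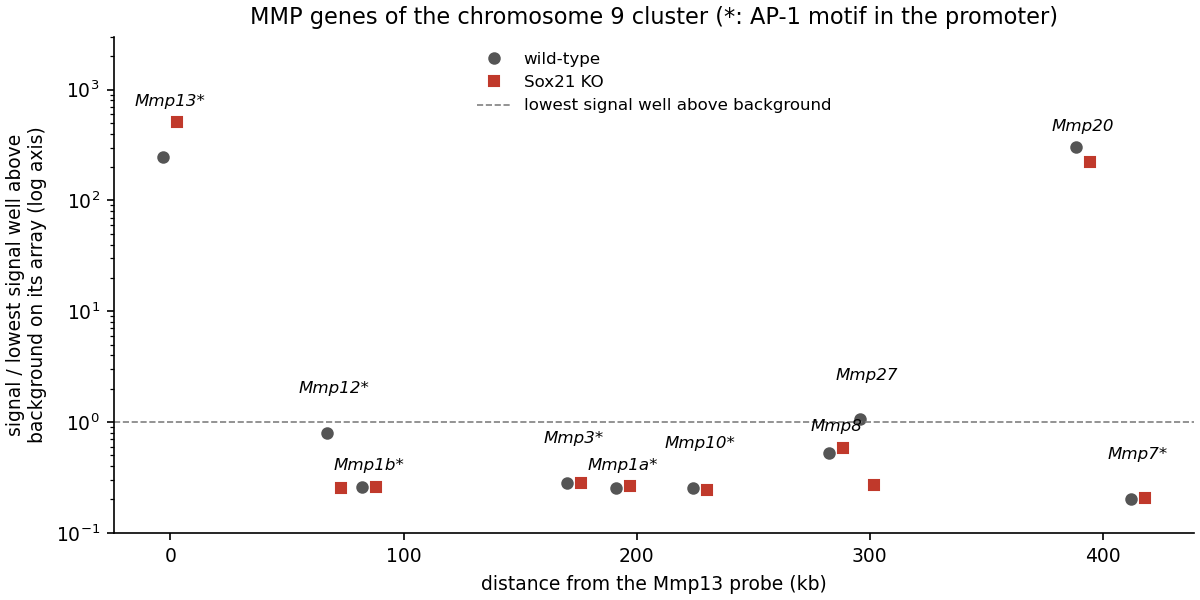
Signal of each MMP gene of the chromosome 9 run, divided by the lowest signal that passed the background limit on its array (log axis), against the distance of its probe from the *Mmp13* probe in kb; symbols of the same gene are set slightly apart, and an asterisk marks genes with TGAGTCA on either strand in the 250 bases before their start. *Mmp13* (245 and 508) and *Mmp20* (302 and 221) lie far above the dashed line at 1; the wild-type point of *Mmp27* lies at 1.06 but the scanner software did not mark it as passing.

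All of the TIMPs that could be measured had higher signals in the knockout. *Timp1*, an inhibitor induced by many growth factors and cytokines, had 4333 ± 433 in wild-type and 6416 ± 642 in *Sox21* KO, a log2 ratio of 0.52. *Timp2*, which both inhibits MMPs and takes part in activating gelatinase A, had 39147 ± 3915 and 51209 ± 5121, a log2 ratio of 0.35. *Timp3*, which binds to the matrix and inhibits ADAMs and ADAMTS enzymes as well, had 6995 ± 700 and 9316 ± 932, a log2 ratio of 0.37. Each of these ratios exceeded its scanner error of 0.20, and none reached 1.5-fold. The second probe of *Timp2* gave 2046 and 2292, a log2 ratio of 0.12 that lies within its error. *Timp4* had 14.0 ± 5.97 in wild-type, not well above background, and 29.9 ± 5.96 in *Sox21* KO, at least 1.36-fold higher. Here and below, such a bound sets the measured side against the higher of the unmeasured signal and the lowest signal marked well above background on that array, 21.3 for wild-type and 19.5 for *Sox21* KO, after scaling. *Timp1*, *Timp2* and *Timp3* stayed higher under the 4 alternatives of scaling or background correction, all on the same 2 arrays. The median of the 3 was 0.37 as reported. The other alternatives returned nearly the same ratio for *Timp1* and *Timp3*, with 1 probe each, and could not change their direction. For *Timp2* the mean of its probes gave 0.23.

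**Figure D4:**
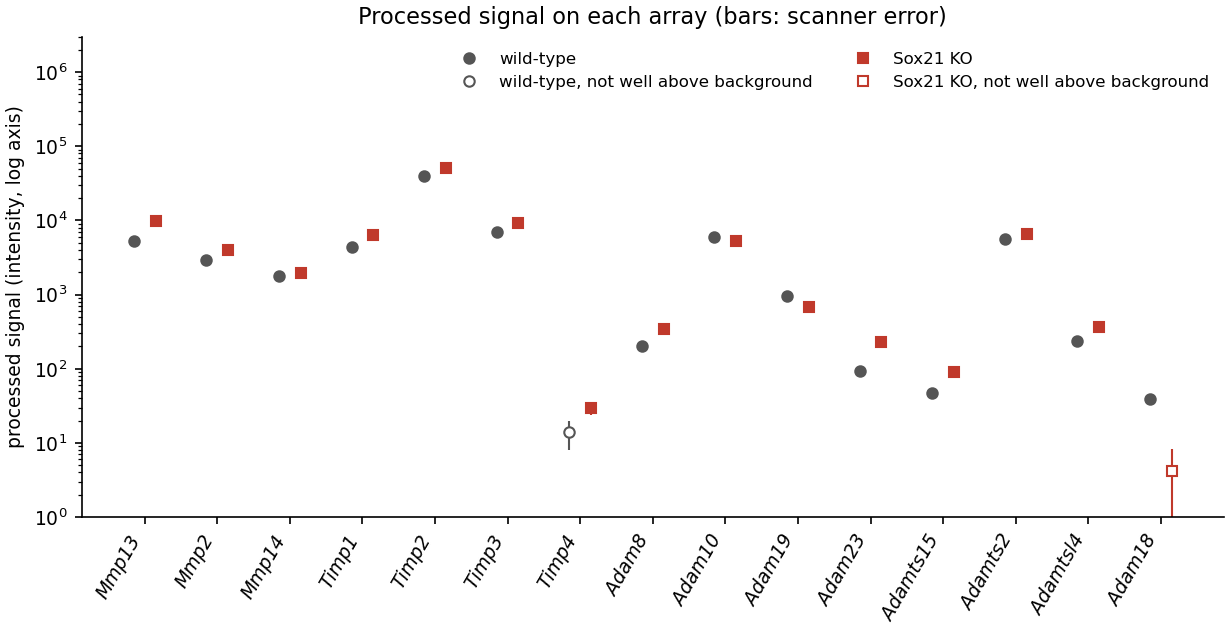
Processed signal (log axis) in wild-type (circles) and *Sox21* KO (squares) for 15 members described in the text; bars are the scanner error, often smaller than the symbol, and open symbols were not well above background. The KO square lies above the wild-type circle for *Mmp13*, *Mmp2* and the TIMPs and below it for *Adam10*, *Adam19* and *Adam18*.

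The catalytic ADAMs of wide expression, known as sheddases, went both ways. *Adam10*, the main sheddase of Notch receptors and of several adhesion molecules, had 5985 ± 599 and 5254 ± 525, lower in the knockout with a log2 ratio of -0.23. *Adam17*, which releases TNF and EGF receptor ligands, was dim, at 42.6 ± 6.15 and 39.4 ± 5.67 (-0.15), and its other probe, shifted by 8 bases and sharing 52, gave 0.12. Neither ratio of *Adam17* exceeded its error.

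*Adam19*, a sheddase of neuregulin with a known part in heart development, had 960 ± 96.2 in wild-type and 674 ± 67.5 in *Sox21* KO, the lowest log2 ratio among the 39 measured members at -0.55. *Adam8*, a sheddase of leukocytes and osteoclasts, had 204 ± 21.1 and 343 ± 34.6, a log2 ratio of 0.71, or 0.51 with normexp background correction. *Adam9* was higher too, at 829 and 1089 (0.35). *Adam15* had 7018 and 7798 (0.11), *Adam33* 179 and 153 (-0.26), and *Adam28* was on neither array. Of 9 sheddases 8 were measured, 3 higher and 5 lower, with a median log2 ratio of -0.13, which became 0.05 when all probes of a gene were averaged and 0.11 when a brighter signal was required.

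*Adam12*, expressed in growing mesenchyme and muscle precursors, was the only member whose measured probes were more than 1.5-fold apart. Its brightest probe had 169 ± 17.5 and 162 ± 16.8, a log2 ratio of -0.10. Its second probe had 33.0 ± 6.37 and 63.9 ± 8.19, a log2 ratio of 0.91 (scanner error 0.33), and its dimmest was on neither array. The second probe lies 3739 bases beyond the brightest one in the direction of transcription, so the 2 answers come from different stretches of the gene, and no single value holds for *Adam12*.

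The non-catalytic ADAMs of nerve cells, *Adam11*, *Adam22* and *Adam23*, act as binding partners of secreted LGI proteins and of integrins. *Adam23* had 94.4 ± 10.698 in wild-type and 227 ± 23.1 in *Sox21* KO, a log2 ratio of 1.22 (scanner error 0.22) and the highest among measured members. Its second probe had 6.13 and 26.7 and was well above background only in *Sox21* KO, the same direction, while its dimmest was on neither array. *Adam22* had 219 and 264 (0.23) and *Adam11* 782 and 764 (-0.07). All of the Schwann cell markers that were measured, 2 of 3, had ratios slightly below 0, with a summed normalised signal of 2.21 against 2.07, and their part in the *Adam23* result was not tested.

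The 20 ADAMs of testis and sperm, which include the fertilins, were mostly at background, with 14 on neither array. *Adam5* was the one measured on both, at 55.4 and 66.7 (log2 ratio 0.23), and its second probe gave -0.14. *Adam18* had 39.6 ± 5.96 in wild-type and 4.13 ± 4.14 in *Sox21* KO, at least 2.09-fold lower. *Adam32* had 29.2 and 19.999 and *Adam26b* 32.5 and 25.8, at least 1.504-fold and 1.30-fold lower. In the other direction, *Adam6b* had 19.8 and 32.0, at least 1.46-fold higher, and *Adam21* 23.8 and 26.3, at least 1.07-fold higher. All of these lie close to background and rest on 1 probe each, except that *Adam32* has a second probe, which was on neither array. Of 5 male germ cell markers only *Prm2* was measured, with a log2 ratio of -0.21.

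The ADAMTS enzymes that cleave aggrecan, versican and related proteoglycans had mostly small ratios. *Adamts4* had 2188 ± 219 and 2658 ± 266, a log2 ratio of 0.24, and *Adamts9* 1501 ± 150 and 1868 ± 187, a log2 ratio of 0.27. *Adamts5* had 186 and 226 (0.24), but its second probe gave -0.04. *Adamts1* had 1146 ± 115 and 1145 ± 115, a log2 ratio of -0.04 that turned to 0.03 with the arrays scaled to their medians.

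*Adamts15*, which cleaves versican and aggrecan, had 46.9 ± 7.40 in wild-type and 89.6 ± 10.4 in *Sox21* KO, a log2 ratio of 0.89 (scanner error 0.28). This signal is low, and with normexp background correction the ratio was 0.34. *Adamts8* had 55.5 and 51.3, a log2 ratio of -0.16 (scanner error 0.29), and *Adamts20* had 4.50 and 4.15 and was on neither array. Of these 7 genes 6 were measured, 4 higher and 2 lower, with a median log2 ratio of 0.24.

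The procollagen N-proteinases trim the amino-terminal propeptide off fibrillar procollagens before fibrils assemble. *Adamts2*, the main one for type I collagen, had 5576 ± 558 and 6548 ± 655, a log2 ratio of 0.19 within its error of 0.20. Its second, dimmer probe had 26.0 ± 6.12 and 86.1 ± 10.1, well above background only in *Sox21* KO. The log2 ratio of that probe was 1.69 (scanner error 0.38), far from the brightest one. *Adamts14* had a log2 ratio of 0.27 and *Adamts3* of 0.09, so that 3 of 3 were higher, though *Adamts3* turned to -0.01 with normexp background correction.

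Of the 2 ADAMTS enzymes that cleave the cartilage protein COMP, *Adamts7* had a log2 ratio of -0.17. *Adamts12* had 26.8 ± 6.33 and 29.1 ± 6.003 on its brightest probe, well above background only in *Sox21* KO and at least 1.05-fold higher, while its other probe had 31.3 and 6.72 and was above background only in wild-type, so its probes disagreed. Of the 7 other ADAMTS genes 4 were measured, from -0.40 for *Adamts16* (147 and 115) to 0.30 for *Adamts10*. *Adamts19* had 17.5 and 23.3, well above background only in *Sox21* KO and at least 1.04-fold higher, and *Adamts6* and *Adamts13* were on neither array. Across the ADAMTS family, 14 of 19 genes were measured, 10 higher and 4 lower, with a median log2 ratio of 0.19. With normexp background correction the split was 8 and 6, and the median fell to 0.09.

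ADAMTS-like proteins resemble ADAMTS enzymes without a protease domain and bind fibrillin microfibrils. *Adamtsl4*, whose loss displaces the lens of the eye, had 238 ± 24.2 and 370 ± 37.2, a log2 ratio of 0.60, just inside the 1.5-fold limit, or 0.50 with normexp background correction. *Adamtsl1* had 164 ± 17.3 and 249 ± 25.4, a log2 ratio of 0.56, just outside it. *Adamtsl5* had a log2 ratio of -0.07, and *Adamtsl2* and *Adamtsl3* were on neither array.

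Probes of the same gene give a measure of how far a single probe can be trusted. Among the 11 members with at least 2 probes well above background on both arrays, the range of log2 ratios had a median of 0.27, 7 had probes of opposite sign, and 1, *Adam12*, was more than 1.5-fold apart. Probes marked on 1 array only, such as those of *Adamts2* and *Adamts12* that disagreed, are not in this comparison. Most of the ratios above were smaller than this median range between probes of 1 gene. Of the 5 members past 1.5-fold, *Adam23* alone has more than 1 probe.

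**Figure D5:**
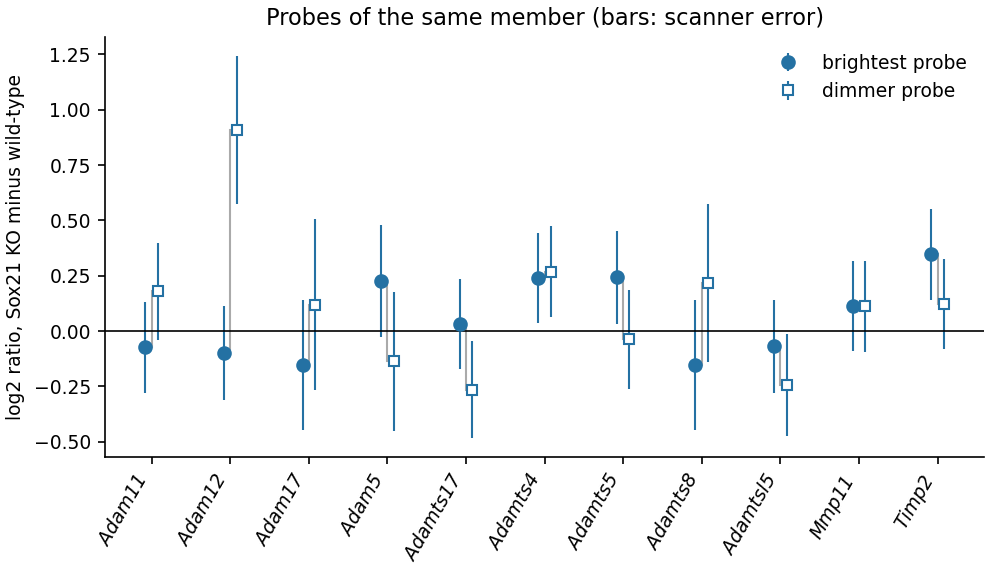
Log2 ratio (*Sox21* KO minus wild-type) of the brightest (filled) and a dimmer (open) probe of the 11 members with 2 probes well above background on both arrays; bars are the scanner error. The *Adam12* probes lie at -0.10 and 0.91, and the pairs of *Mmp11* and *Adamts4* nearly coincide.

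The 34 members on neither array had signals of 4.26 to 23.3 in wild-type, with a median of 5.90, and of 3.98 to 23.3 in *Sox21* KO, with a median of 5.13. They were 14 MMP, 15 ADAM, 3 ADAMTS and 2 ADAMTS-like genes, and no ratio is given for them.

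Genes that act on these enzymes were taken from fixed lists. Of 15 activators, such as furin and the plasminogen activators, 13 were measured, 7 higher and 6 lower. *Tspan15*, a tetraspanin that carries ADAM10 to the cell surface, had 397 ± 40.0 and 180 ± 18.6, a log2 ratio of -1.18. It was the only activator measured on both arrays that was past 1.5-fold. The other tetraspanins of the list went both ways, with *Tspan5* at -0.30, *Tspan14* at -0.07 and *Tspan17* at 0.17. A link to the ratio of *Adam10* (-0.23) was not tested. *Plau*, urokinase, had 21.0 and 35.5, well above background only in *Sox21* KO and at least 1.62-fold higher.

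Among the other inhibitors of these enzymes, *Papln*, papilin, a matrix protein known to inhibit an ADAMTS enzyme, had 7105 ± 711 and 4142 ± 414, a log2 ratio of -0.82, opposite to the TIMPs. *Spock2*, testican-2, had 178 and 120 (-0.61), lower in the knockout as well. *Reck*, a membrane-anchored inhibitor of MMPs, had a log2 ratio of 0.21.

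Of 12 matrix proteins that these enzymes cleave, 11 were measured, 9 higher and 2 lower, with a median log2 ratio of 0.20. *Comp* had 89.6 and 171 (0.89) and *Col2a1*, the collagen of cartilage, 2857 and 4919 (0.74), while the brain proteoglycan *Bcan* had 43.1 and 28.8 (-0.62). Of 12 membrane ligands and receptors shed by ADAMs, 8 were measured, 2 higher and 6 lower, none past 1.5-fold, with a median log2 ratio of -0.19.

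Some markers of cells that make these enzymes moved with several of the results. All 6 osteoclast markers were higher in the knockout, with a summed normalised signal of 740 against 913 and log2 ratios from 0.21 to 1.36. All 5 osteoblast markers had ratios above 0, 160 against 210. *Alpl* (0.01), *Sp7* (0.01) and *Bglap* (0.13) lay within their scanner error, and *Ibsp* (0.55) and *Spp1* (0.82) beyond it. Of 6 cartilage markers 4 were measured and 3 were higher, with *Matn1* and *Cnmd* at background on both arrays. Their sum of 12.1 against 19.6 is mostly that of *Col2a1* (0.74). The dimmer *Acan* had 0.36, *Col10a1* 0.33 and *Col9a1* -0.03. The osteoclast markers and some osteoblast and cartilage markers were higher, as were *Mmp13*, *Adam8* and *Mmp9*. The part of these cell types in those results was not tested.

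Of 6 macrophage markers 5 were higher, 36.2 against 45.3, whereas the 5 measured of 7 neutrophil markers all had log2 ratios below 0, from -0.56 to -0.02, with these 5 summing to 11.2 against 10.9. Of 5 skeletal muscle markers 4 were lower, 57.9 against 40.3. Of 5 markers of cornified epidermis 3 were measured and all were higher, 5.263 against 10.68, and *Flg*, well above background only in *Sox21* KO, was at least 5.18-fold higher. All 3 odontoblast markers were measured, and their sum of 114 against 117 is mostly that of *Dspp*, at -0.01, while *Dmp1* (0.93) and *Phex* (0.79) were past 1.5-fold higher. Of 5 endothelial markers 4 were higher, with *Pecam1* (0.62) and *Tek* (0.64) past 1.5-fold, although the sum, mostly that of *Kdr* (-0.02), was 51.5 against 51.7. Of 5 markers of dental mesenchyme 3 were higher, 378 against 379.9, and of 4 of epithelium 3 were higher, 535 against 626. What share of the differences in *Adam12*, *Adamts15*, the TIMPs or *Mmp2* these cell types carry was not tested.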

How the data were processed

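Gene expression was measured in wild-type and *Sox21* KO incisor on 2 one-colour arrays. The authors deposited each spot's intensity as a processed signal from Agilent Feature Extraction 10.7.3.1, and a table of ratios in which that signal is divided by 1 number per array, 267.8 or 275.6, with 62976 spots and 0 saturated. The methods name a percentile shift but no percentile. Here each signal was divided by its array's 75th percentile, and the log2 was averaged over the spots of a probe, leaving out 267 outlier spots, which gave 55679 probes (Python 3.11.15, pandas 2.3.3). Symbols came from RefSeq GRCm38.p6: 26298 probes matched by accession, 2044 by symbol, 355 by older symbol, and 26982 kept the file's name. All 81 member names were reference symbols, and 2 genes with a member symbol only under a newer name were not counted. Members and lists were chosen with earlier results of these data known. Named with both signals were members past 1.5-fold, on 1 array only or with probes 1.5-fold apart, and a fixed set of well-known ones, others being named for completeness. With 1 array per genotype no test was run, and precision is limited by having so few arrays. Alternatives changed scaling, background correction (limma 3.58.1, normexp, offset 50), probe choice and filters. The steps were tested on simulated data with changes larger than those of the measured members, which says nothing about smaller differences. A planned search for protein motifs was not done. A gene of the list of other inhibitors is not reported here.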

Additional observations from a re-analysis of the deposited data

How the results depend on the processing

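Across 10 alternatives, 352 recomputed values of single genes and lists stayed within the spread of repeat spots and 21 moved beyond it, while, over all members, 71 recomputed counts and medians stayed within 1.5 times the reported count or the spread of repeat spots and 9 did not; the counts within that limit included 7 members at least 1.5-fold higher with scaling to the median, where 5 are reported, and no member past 1.5-fold changed sign. Alternatives of probe choice or filter mostly return the reported ratio of a gene with 1 probe, so many values could not move. Requiring a normalised signal of at least 1 on 1 array left 21 members measured, 17 higher and 4 lower, with 3 at least 1.5-fold higher and 0 at least 2-fold higher, since fewer genes enter. With normexp background correction 2 members were at least 1.5-fold higher and 0 at least 2-fold higher; the cause was not tested. With signals raised to the lowest one well above background on their array in place of the requirement, 50 members with a signal over that floor on at least 1 array entered, of which 2 were at least 1.5-fold lower and 1 at least 2-fold lower. The log2 ratios ranged over the alternatives from 0.86 to 0.95 for *Mmp13*, 0.85 to 1.30 for *Adam23*, 0.34 to 0.96 for *Adamts15*, 0.51 to 0.78 for *Adam8* and 0.50 to 0.67 for *Adamtsl4*, and from -0.11 to 0.41 for *Adam12*. With scaling to the median, *Adamts1* and *Adamtsl5* changed sign, and with normexp *Adamts3* and *Adamts17* did. Genes past 1.5-fold numbered 441 higher and 411 lower as reported, 604 and 298 with scaling to the median, and 172 and 212 with normexp. No paired analysis was possible because each genotype has 1 array, and for the same reason no array could be left out. Signals near background, 21.3 and 19.5 at the least for marked probes, limit what can be said of the dim members.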
